A study of Mus musculus with 2 samples.

Results

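The Ifitm family in neutrophils and T cells of the inflamed spinal cord is described here through 4 members, Ifitm1, Ifitm2, Ifitm3 and Ifitm6, of 28482 genes in the deposited count matrix. The family was selected on the lower Ifitm1 level in CD8 T cells of the inhibitor mice, so all values of that contrast are given as a description with no test. The cells were CD45+ cells (leukocytes) from the spinal cords of 4 C57BL/6 mice, taken 15 days after induction of experimental autoimmune encephalomyelitis (EAE), a T cell-driven model of multiple sclerosis. Of these mice 2 received no inhibitor (untreated 1 and 2) and 2 received an inhibitor (inhibitor 1 and 2) that the sources used here do not name, and both groups carried EAE. The animals were hashtagged, pooled and captured together in 1 run, so n is 2 mice a group.

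IFITM proteins are small membrane proteins that hinder the fusion of enveloped viruses with the membranes of the host cell. IFITM1 sits mostly at the cell surface, whereas IFITM2 and IFITM3 sit mostly in endosomes and lysosomes. Type I and type II interferons induce the genes through the JAK-STAT pathway, which acts on interferon-stimulated response elements (ISREs) and gamma-activated sites (GAS) of promoters. Ifitm6 is a mouse member that is less well studied.

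After filtering, 19256 cells remained, between 4318 and 5443 a mouse, with a median of 8180 to 8612 counts a cell. No cell barcode was shared between mice. The median mitochondrial share was 3.82% and 4.18% in the untreated mice and 2.41% and 3.45% in the inhibitor mice. Clusters made without the 4 members were named from marker genes, and each name below means cells like that type: 7198 were neutrophils, 6310 were T cells, 525 were dendritic cells other than plasmacytoid ones, and 1628 were microglia. Neutrophils were split into cycling precursors (547 cells, Mki67 and Fcnb), immature (1817, Ltf and Ngp), mature (704, Mmp8 and Retnlg) and inflammatory cells (3891, Il1b and Cxcl2), and T cells into CD4 (3831), CD8 (607), regulatory (840) and gamma-delta (585) subsets. Another 447 T cells, led by Il17a and with a count of Cd4 in 64.2% of them, stayed without a subtype. Levels below are CPM, the counts of a gene scaled to a fixed total of counts of the class in that mouse. They compare classes and mice for 1 gene, not genes with each other, and a class sum does not separate fewer expressing cells from less RNA per cell.

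The 4 genes lie together on chromosome 7 in GRCm38, the build named in the submitters' processing notes. Ifitm2 lies at chr7:140954837-140955987 on the minus strand, Ifitm1 at chr7:140967221-140969825 on the plus strand, Ifitm3 at chr7:141009586-141010770 on the minus strand and Ifitm6 at chr7:141015699-141017924 on the minus strand. The promoters of 3 members are shown from 250 bases before to 50 bases after the start site. They were chosen because, among neutrophils and CD4 T cells, Ifitm3 was higher in every mouse in cells with other interferon-induced transcripts. Listed Ifitm1 was not (values further on), but in CD4 T cells it rests on 27 to 42 such cells a mouse. It is also cut by the count limit described below. Ifitm2 was higher in such cells over all neutrophils (ratios of 1.13 to 1.32). Within inflammatory neutrophils its ratio was 0.759 to 0.986, and in CD4 T cells it was 0.333 to 1.07. Any part of the promoters in these values was not tested. The sequences were copied 5′ to 3′ from RefSeq (GRCm38.p6). Capitals mark matches to the ISRE core GAAANNGAAA, searched on both strands together with the GAS core TTCNNNGAA.
Ifitm3, chr7:141010695-141010994, minus strand: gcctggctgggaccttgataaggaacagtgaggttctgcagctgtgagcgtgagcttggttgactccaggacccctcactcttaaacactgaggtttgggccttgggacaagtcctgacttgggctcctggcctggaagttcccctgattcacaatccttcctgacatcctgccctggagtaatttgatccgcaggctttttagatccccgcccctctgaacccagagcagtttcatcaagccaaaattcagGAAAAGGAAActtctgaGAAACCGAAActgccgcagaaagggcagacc
Ifitm2, chr7:140955912-140956211, minus strand: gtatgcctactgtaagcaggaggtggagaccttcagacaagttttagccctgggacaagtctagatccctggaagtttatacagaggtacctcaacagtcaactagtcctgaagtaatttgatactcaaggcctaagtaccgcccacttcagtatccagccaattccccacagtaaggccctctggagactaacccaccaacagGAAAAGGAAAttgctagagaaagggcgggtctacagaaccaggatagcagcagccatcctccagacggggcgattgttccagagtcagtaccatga
Ifitm1, chr7:140967826-140968125, plus strand: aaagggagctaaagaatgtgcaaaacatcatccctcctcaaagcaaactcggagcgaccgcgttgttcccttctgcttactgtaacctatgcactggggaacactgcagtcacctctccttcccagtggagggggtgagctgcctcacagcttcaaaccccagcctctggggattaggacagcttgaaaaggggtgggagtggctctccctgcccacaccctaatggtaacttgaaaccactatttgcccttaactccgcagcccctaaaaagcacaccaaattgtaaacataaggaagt
The Ifitm3 window held 2 ISRE matches, which began 3 and 20 bases after the start site, and 1 GAS match that began at base 14 and overlapped the second of them. Ifitm2 held 1 ISRE match, which began 46 bases before the start site, with the same letters as the first one of Ifitm3. No match to either core was found in the window of Ifitm1, and the Ifitm6 window (chr7:141016843-141017142, minus strand) held 1 GAS match and no ISRE match. The Ifitm1 window begins at base 140967826, inside the gene given above as starting at 140967221. The Ifitm6 window likewise lies inside its gene, which reaches to 141017924 on the minus strand. Sequence at those outer gene ends was not searched for either gene. Of 32851 promoters of that length, 3.44% held the ISRE core and 8.30% the GAS core. A match describes letters and not a bound site.

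Small counts were missing from the deposited values of 2 members. The smallest nonzero count of Ifitm1 was 5, listed in 253 cells, and that of Ifitm6 was 6, whereas Ifitm2 and Ifitm3 started at 1. These 2 genes stood among the first 44 rows of the matrix, which all lacked small counts, while 32.8% of all nonzero values of the matrix were 1. A listed 0 of Ifitm1 can therefore stand for up to 4 counts if the same limit held in every cell. The same limit laid on Ifitm3 would take away 67.9% of the CD8 T cells that have a count, with 19.2% of their counts, but only 1.85% of the counts in neutrophils. The sources used here do not say if counts are of molecules or of reads.

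Neutrophils held most counts of each member. They made up 37.4% of the cells and 38.7% of all counts, and they held 80.2% of the counts of Ifitm1, 82.0% of Ifitm2, 72.4% of Ifitm3 and 98.3% of Ifitm6. T cells held 3.35% of the counts of Ifitm1, 5.13% of Ifitm2 and 6.63% of Ifitm3. The other dendritic cells, which were 2.73% of the cells, held 12.5% of the counts of Ifitm1.

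**Figure D1:**
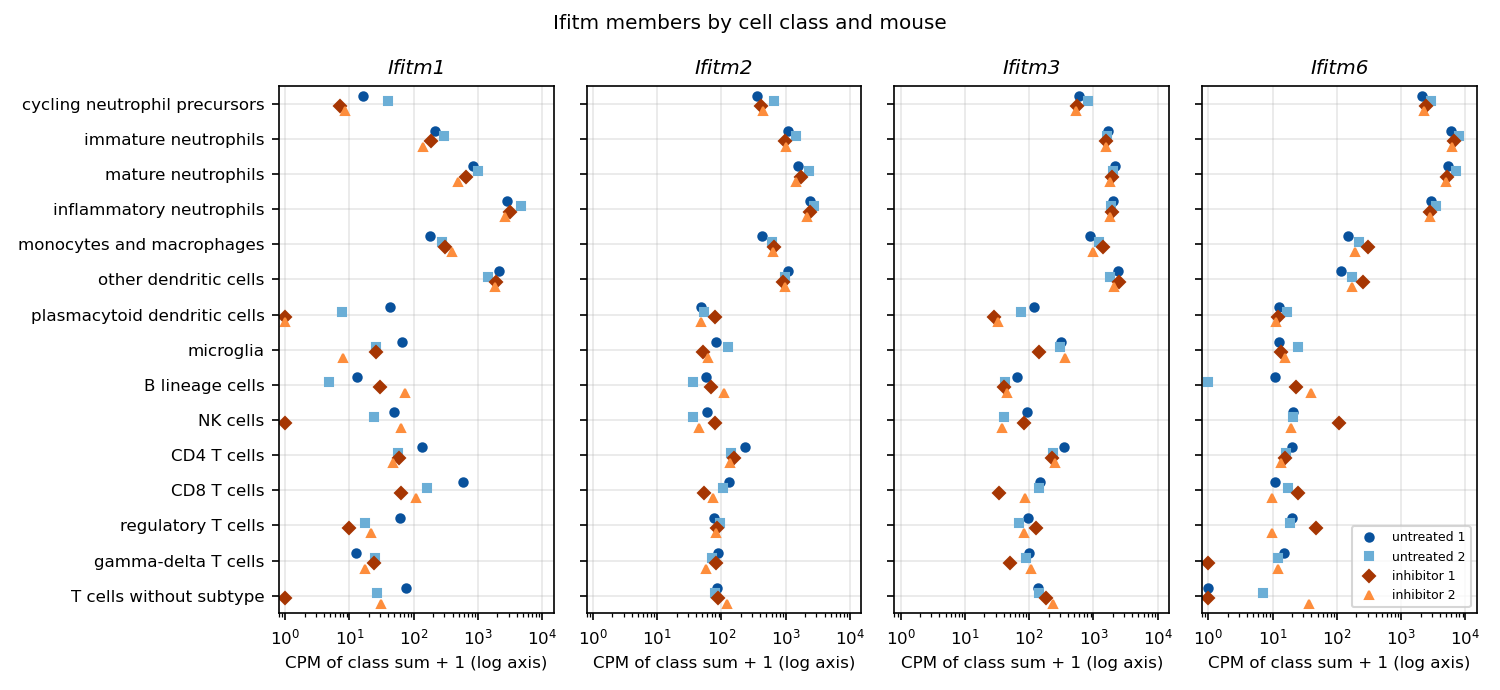
Level of each Ifitm member (CPM of the class sum plus 1, log axis) in 15 cell classes (rows) and 4 mice (2 untreated in blue, 2 inhibitor in orange). Ifitm6 fell away outside neutrophils, while Ifitm1, Ifitm2 and Ifitm3 were also high in the other dendritic cells. In CD8 T cells the 4 mice were spread out for Ifitm1 (63.3 to 586 CPM) and Ifitm3 (32.4 to 147 CPM).

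Across the classes Ifitm1, the member at the cell surface, was highest in inflammatory neutrophils at 3308 ± 926 CPM (SD, n = 4 mice) and next in the other dendritic cells at 1802 ± 293 CPM, and the ranges of these classes over the mice did not overlap. Monocytes and macrophages had 285 ± 87.5 CPM, and T cell subsets ran from 229 ± 241 CPM in CD8 T cells to 18.8 ± 5.70 CPM in gamma-delta T cells. Below CD4 T cells (72.8 ± 39.7 CPM) the ranges of all neighbours in the order overlapped. Plasmacytoid dendritic cells stood last, with 41.9 and 6.72 CPM in the untreated mice and a listed 0 in both inhibitor mice.

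Ifitm2, an endosomal member, was highest in inflammatory neutrophils (2406 ± 274 CPM), followed by mature neutrophils (1739 ± 376 CPM), and those ranges overlapped. Ifitm3, the member best known for blocking influenza virus, had its highest mean in the other dendritic cells (2208 ± 318 CPM), whose range overlapped that of mature neutrophils (1976 ± 149 CPM) and inflammatory neutrophils (1902 ± 105 CPM). Among T cells, CD4 T cells were first for both genes: 166 ± 45.8 CPM for Ifitm2 and 265 ± 54.6 CPM for Ifitm3. The range of the class named CD4 lay wholly above that of each other T cell subset for Ifitm2. For Ifitm3 the next subset, T cells without a subtype, overlapped it. Other subsets also hold cells with Cd4. A count of Cd4 was listed in 64.2% of the T cells without a subtype and 52.7% of regulatory T cells. In the largest CD4 cluster it was listed in 60.7%.

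Ifitm6 was high in neutrophils at every stage. Its mean was highest in immature neutrophils (6618 ± 877 CPM) and, among the stages, lowest in cycling precursors (2413 ± 354 CPM). Next came the 97 erythroid cells at 593 ± 505 CPM, then 215 ± 65.5 CPM in monocytes and macrophages and 178 ± 59.1 CPM in the other dendritic cells, and the precursors' range lay above all of these. In CD8 T cells 0.980% to 2.65% of the cells of a mouse had a count of Ifitm6, against 1.43% to 1.96% in plasmacytoid dendritic cells, at median depths of 8489 and 11852 counts. The CD8 range thus spanned that of plasmacytoid dendritic cells, and it is not read as expression. Both are cut by the smallest nonzero count of 6, and the part of free RNA was not tested.

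Along the neutrophil stages the members took different courses. Ifitm1 was at 15.1 and 39.1 CPM in cycling precursors from untreated mice and at 6.15 and 7.58 CPM in those from inhibitor mice. It was at 211 and 297 against 183 and 140.2 CPM in immature cells and at 823 and 998 against 637 and 487 CPM in mature cells. Inflammatory cells had 2766 and 4654 CPM in the untreated mice and 3178 and 2635 CPM in the inhibitor mice. The level of Ifitm1 was thus higher at each stage than at the one before it in every mouse, and the share of cells with a count went from 2.15% to 6.31% in cycling precursors to 51.9% to 70.4% in inflammatory cells. After each cell was thinned to 2000 counts, those shares were 0.719% to 3.60% and 48.9% to 68.3%, while the cycling cells were the deepest, with a median of 24371 counts.

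Ifitm2 also had its lowest level in cycling precursors and its highest in inflammatory cells in every mouse. Ifitm3 differed little between later stages: 1702 and 1632 against 1553 and 1544 CPM in immature cells (untreated, then inhibitor mice), and 2023 and 1849 against 1950.5 and 1787 CPM in inflammatory cells. Ifitm6 took the opposite course to Ifitm1 after the immature stage. It stood at 5873, 7853, 6604 and 6143 CPM in immature cells and at 2876, 3513, 2773 and 2846 CPM in inflammatory cells (untreated 1 and 2, inhibitor 1 and 2), and each mouse was lower in the inflammatory stage. The stages come from clusters of the same cells, so these courses are a description without a test.

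**Figure D2:**
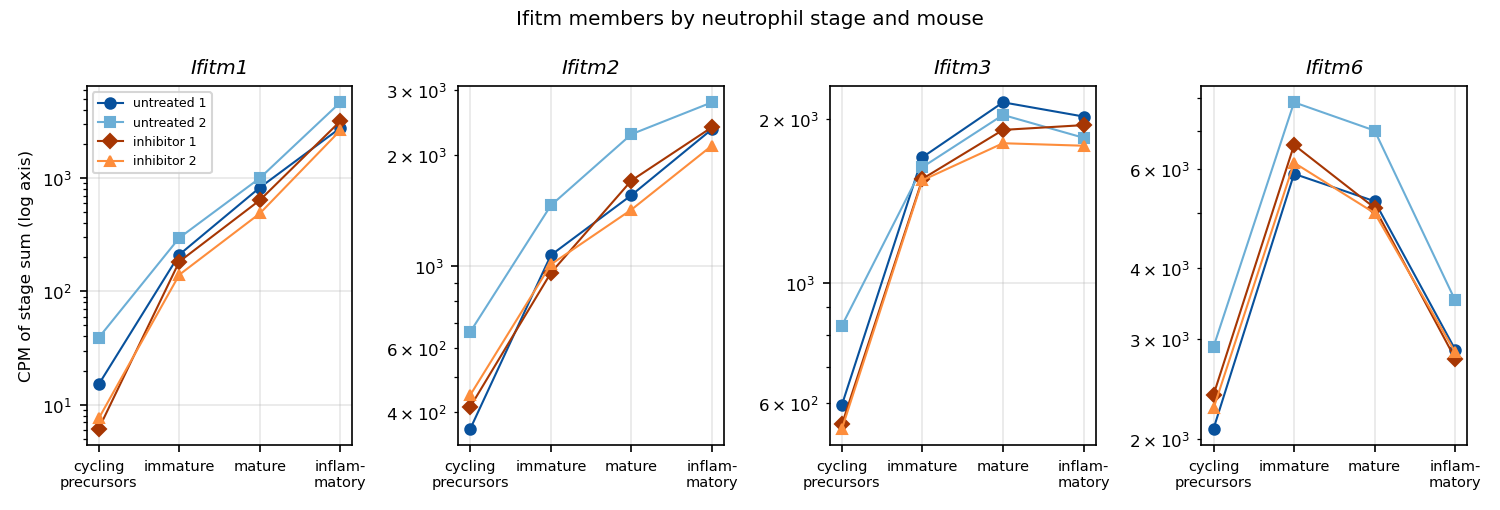
Level of each member (CPM of the stage sum, log axis) in 4 neutrophil stages, with 1 line a mouse. The 4 lines of Ifitm1 climb at each stage, those of Ifitm6 peak in immature cells, and untreated mouse 2 is the highest line for Ifitm1, Ifitm2 and Ifitm6 in each stage.

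Within the inflammatory neutrophils, 1 cluster of 442 cells led by Steap4, which encodes a metalloreductase, stood out for both genes. Its Ifitm1 level was 4979 and 9348 CPM in the untreated mice and 5856 and 6003 CPM in the inhibitor mice, and its Ifitm6 level was 1055, 1339, 1382 and 2191 CPM in the same order. These cells made up 3.26% and 12.3% of the neutrophils of the untreated mice and 6.79% and 3.70% of those of the inhibitor mice. The largest share and the highest Ifitm1 level both fell in untreated mouse 2.

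The 5 genes most like each member were taken by Pearson correlation of log2(CPM + 1) over 64 points (16 classes that do not overlap in 4 mice, sharing libraries and depth) among 9104 genes. For Ifitm1 they were Ifitm2 (r = 0.78), Gm45717 (0.77), the inflammatory cytokine Il1b (0.76), a marker by which the inflammatory stage was named, the lectin Lgals3 (0.76) and Wfdc17 (0.76). Ifitm2 was most like Gm45717 (0.98) and Ifitm3 (0.94), followed by Gm9733, the decoy receptor Il1r2 and the pentose phosphate enzyme Taldo1 (each 0.91). Beside Ifitm2 and Gm45717 (0.94), Ifitm3 was most like Tgfbi (0.90), Gpr141 (0.89) and Lgals3 (0.89). Ifitm6 was most like Mcemp1 (0.96), the transketolase Tkt (0.95), Anxa1, Mapk13 and Prdx5 (each 0.92), and its r with Ifitm1 was 0.54.

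Ifitm2 and Gm45717 also share sequence. An exon of Gm45717 shares 268 of the 655 exonic bases of Ifitm2 (chr7:140955670-140955937), and 36.1% of the windows of 50 bases in Ifitm2 transcripts also occur in Gm45717. Reads there could be split between both genes by the counting, so the Ifitm2 values are uncertain to that extent. The part of shared sequence in the likeness was not tested. Ifitm3, with 3.18% of its windows in Gm45717, had an r of 0.94 with that gene. Windows shared with any other gene were 294 of 606 for Ifitm2, 63 of 629 for Ifitm3, 53 of 1056 for Ifitm1 and 0 of 854 for Ifitm6.

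For the effect of the inhibitor, counts were summed per mouse and class and tested with edgeR's quasi-likelihood test over all genes, with Benjamini-Hochberg adjustment. Neutrophils were 1044 of 4318 and 871 of 4533 cells of the untreated mice and 3418 of 5443 and 1865 of 4962 cells of the inhibitor mice, so members were compared within classes and not over all cells. In neutrophils Ifitm1 stood at 1380.3 and 1729 CPM in the untreated mice and at 1348 and 1123 CPM in the inhibitor mice, so that the groups lay next to each other without overlap. The log2 fold (inhibitor over untreated) was -0.35 ± 0.14 (SE), with an edgeR adjusted p of 0.965 and an unadjusted p of 0.041. Ifitm2 stood at 1578 and 1733 against 1485 and 1397 CPM, also without overlap, with a log2 fold of -0.22 ± 0.10 and an edgeR adjusted p of 0.965. Ifitm3 (-0.08 ± 0.10) and Ifitm6 (-0.10 ± 0.13) had overlapping groups and an edgeR adjusted p of 0.985 each.

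No member passed the test in neutrophils, where edgeR called 0% of 14865 genes, 752 of which had an unadjusted p below 0.05, and DESeq2 called 12. The members with both inhibitor mice below both untreated mice were 2 of 4, beside 15.6% of all genes tested. Leaving out an untreated mouse sets 1 mouse against 2 and leaves no spread among untreated mice, so only folds are given here. Without untreated mouse 1 the log2 fold was -0.52 for Ifitm1, -0.30 for Ifitm2, 0.00 for Ifitm3 and -0.27 for Ifitm6. Without untreated mouse 2 it was -0.16 for Ifitm1, -0.13 for Ifitm2 and 0.11 for Ifitm6. No alternative that kept all 4 mice called a member in neutrophils. Without the Steap4-led cluster, an alternative chosen after the data were seen, the fold of Ifitm1 was -0.26.

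Stage by stage the folds of Ifitm1 were larger, with none called. In cycling precursors the log2 fold was -2.07 ± 0.51 (edgeR adjusted p = 0.909, unadjusted p = 0.00147), but that level rests on 26 and 139 counts in the untreated mice and 40 and 28 in the inhibitor mice. In immature cells it was -0.71 ± 0.20 (edgeR adjusted p = 0.875), and in mature cells it was -0.75 ± 0.18 (edgeR adjusted p = 0.925). In both stages both inhibitor mice lay below both untreated mice. Inflammatory cells, which carry 71.2% of all Ifitm1 counts, had a log2 fold of -0.42 ± 0.23 (edgeR adjusted p = 0.908) with overlapping groups.

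The call for Ifitm1 in mature neutrophils depended on the setting. DESeq2 gave an adjusted p of 0.00869 and edgeR with no filter on low counts gave 0.0278, against 0.925 in the edgeR fit and up to 1 in others. Some folds lay further from 0 without untreated mouse 1, a fit that leaves 1 untreated mouse. Ifitm1 was then at -2.59 in cycling, -0.96 in immature and -0.77 in inflammatory cells, and Ifitm3 at -0.69 in cycling cells. Ifitm2 was at -0.69 in cycling, -0.65 in immature and -0.64 in mature cells, and Ifitm6 at -0.39, -0.38 and -0.56. With no filter on low counts edgeR called Ifitm1 in cycling (adjusted p = 0.018) and inflammatory cells (0.0195), and the highest adjusted p over the alternatives was 1. Without untreated mouse 2, most folds along the stages were nearer 0: Ifitm1 was at -1.11 in cycling and -0.37 in immature cells, Ifitm2 at -0.11 in immature, -0.014 in mature and -0.071 in inflammatory cells, Ifitm3 at -0.099 in cycling cells, and Ifitm6 at -0.074 in mature and -0.041 in inflammatory cells. Also without it, the folds of Ifitm1 in inflammatory cells (0.06), Ifitm2 (0.29) and Ifitm6 (0.19) in cycling cells and Ifitm6 in immature cells (0.12) lay on the other side of 0.

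The limit on small counts bears on Ifitm1 here too. With groups pooled and each listed 0 set at 4 counts in 1 group only, the log2 ratio of inhibitor to untreated could lie anywhere from -4.54 to 2.26 in cycling precursors, from -1.45 to 0.67 in immature cells and from -0.99 to 0.01 in mature cells. In inflammatory cells it stayed between -0.35 and -0.19, and in all neutrophils between -0.46 and -0.07. These ranges cover hidden counts only and not the spread between mice, and by mouse the groups overlapped in inflammatory cells.

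The other members had smaller folds along the stages. For Ifitm2 the log2 fold ran from -0.42 ± 0.16 in immature cells (edgeR adjusted p = 0.889) to -0.25 ± 0.12 in inflammatory cells, for Ifitm3 from -0.43 ± 0.17 in cycling cells (edgeR adjusted p = 0.998) to -0.10 ± 0.09 in inflammatory cells, and for Ifitm6 from -0.34 ± 0.14 in mature cells (edgeR adjusted p = 0.984) to -0.14 ± 0.15 in cycling cells. Both inhibitor mice lay below both untreated mice for 2 of 4 members in cycling precursors (14% of all genes), 3 of 4 in immature cells (13.7%), 3 of 4 in mature cells (14%) and 1 of 4 in inflammatory cells (13.9%). EdgeR called 0% of the genes in each stage, of which 429, 535, 321 and 643 had an unadjusted p below 0.05 from cycling to inflammatory, and DESeq2 called 3, 2, 12 and 16. The stages share mice with each other and with the class sum, so they are not separate evidence.

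**Figure D3:**
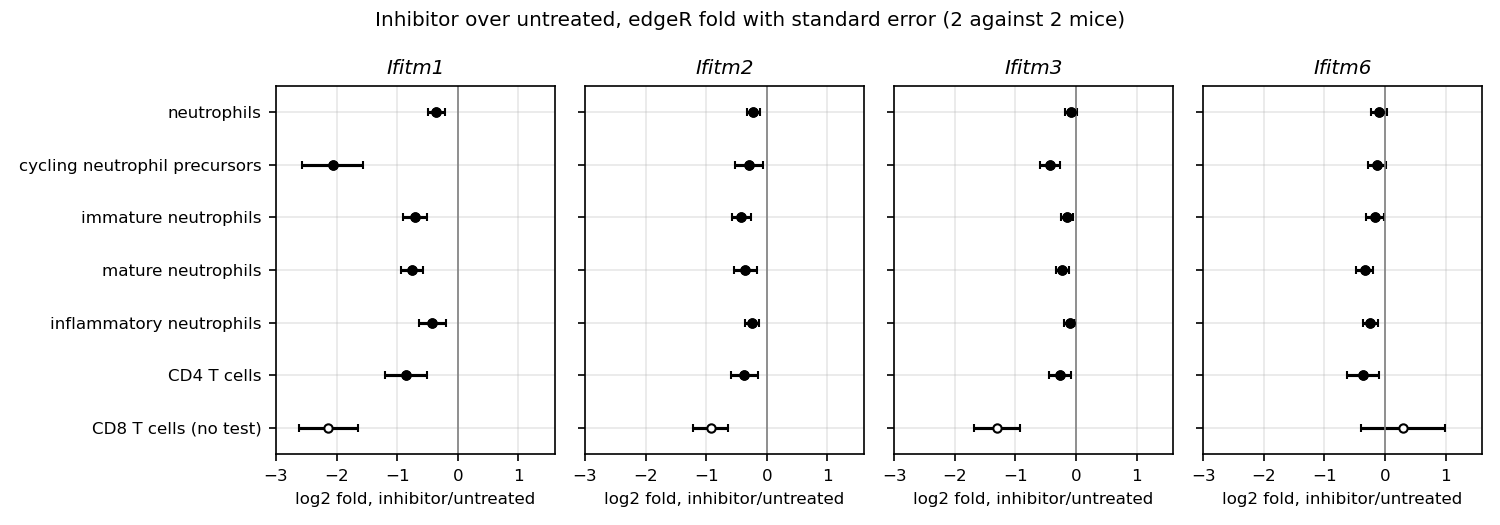
Log2 fold of each member, inhibitor over untreated (2 mice against 2), from edgeR with its standard error, in neutrophils, 4 neutrophil stages, CD4 T cells and CD8 T cells. The 24 filled points lie below 0 and none passed the test, and the open points of CD8 T cells belong to the contrast on which the family was selected and carry no test.

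Markers of other cell types moved with the groups in neutrophils. The summed level of 10 microglia markers in the neutrophil class was 159 and 155 CPM in the untreated mice and 103 and 94.4 CPM in the inhibitor mice, with 10 of 10 lower. In inflammatory neutrophils it was 199.9 and 207 against 111 and 95.3 CPM, in immature ones 114 and 115 against 77.5 and 80.4 CPM, and in mature ones 66.3 and 91.1 against 67.1 and 63.9 CPM. In cycling precursors 7 of 7 progenitor markers were higher in the inhibitor mice (1213 and 1207 against 1477 and 1624 CPM in sum). The 8 T cell markers stood at 98.6, 87.7, 98.4 and 98.7 CPM in neutrophils, and no gene of these T cell and microglia lists was at 0 in a mouse of the class. The makeup of the class also differed, with cycling precursors at 6.13% and 12.7% of the neutrophils of the untreated mice and 6.82% and 7.45% of those of the inhibitor mice. The part of each in the folds was not tested.

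In CD4 T cells Ifitm1 stood at 132 and 55.7 CPM in the untreated mice and at 57.8 and 45.9 CPM in the inhibitor mice, and 1 mouse, untreated 1, stood above the rest. The log2 fold was -0.86 ± 0.35 with an edgeR adjusted p of 1 and an unadjusted p of 0.0426. Without untreated mouse 1 it was -0.12, and with the doublet calls kept in the data it was 0.13, on the other side of 0. The fit with no filter on low counts called it (edgeR adjusted p = 0.00374), the only one of the alternatives run to do so, and the highest adjusted p over them was 1. Counts behind it came from 54, 48, 16 and 40 cells, and with listed zeros at their bound the log2 ratio could lie from -3.34 to 2.40.

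Ifitm2 was at 234 and 142 against 156 and 134 CPM in CD4 T cells, and Ifitm3 was at 345 and 235 against 226 and 255 CPM, so both overlapped between the groups. Their log2 folds were -0.37 ± 0.22 and -0.26 ± 0.18 (edgeR adjusted p = 1 for both), and without untreated mouse 1 both were 0.03 on the log2 scale. Ifitm6 stood at 19.2, 15.1, 14.4 and 12.4 CPM, with a log2 fold of -0.36 ± 0.27 and an edgeR adjusted p of 1, at a level close to that of plasmacytoid dendritic cells (10.2 to 15.5 CPM). In all, 1 of 4 members had both inhibitor mice below both untreated mice, beside 16% of all genes. EdgeR called 0% of 14631 genes, 512 of them with an unadjusted p below 0.05, and DESeq2 called 1. The 12 neutrophil markers summed to 674 and 615 CPM in the untreated mice and 729 and 615 CPM in the inhibitor mice in these cells. Of them 1 was listed at 0 in a mouse and none in all mice. Some, such as S100a8 (smallest nonzero count 110), lack small counts. The part of these markers in the member levels was not tested.

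Whether the difference itself differed between neutrophils and CD4 T cells was tested with an interaction term in edgeR. The log2 fold in neutrophils minus that in CD4 T cells was 0.45 ± 0.41 for Ifitm1, 0.17 ± 0.27 for Ifitm2, 0.22 ± 0.20 for Ifitm3 and 0.32 ± 0.25 for Ifitm6, with an edgeR adjusted p of 1 for each. EdgeR called 0% of 16301 genes for that term, 577 with an unadjusted p below 0.05, and DESeq2 called 1. The term for Ifitm1 was -0.35 without untreated mouse 1 and 1.17 without untreated mouse 2, fits that leave 1 untreated mouse. It was -0.66 with doublet calls kept, and the terms of Ifitm2 and Ifitm6 also turned below 0 without untreated mouse 1 (-0.27 and -0.03).

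In CD8 T cells the untreated mice had 586 and 159 CPM of Ifitm1 and the inhibitor mice had 63.3 and 108 CPM, so the groups did not overlap and untreated mouse 1 stood far above the rest. Ifitm2 was at 131 and 106 against 52.5 and 73.8 CPM and Ifitm3 at 147 and 143 against 32.4 and 84.0 CPM, again without overlap, while Ifitm6 overlapped at 9.82 and 16.2 against 23.9 and 8.96 CPM. The fitted log2 folds were -2.14 ± 0.49 for Ifitm1, -0.93 ± 0.29 for Ifitm2, -1.31 ± 0.38 for Ifitm3 and 0.30 ± 0.69 for Ifitm6. The contrast chose the family, so these values support nothing further. Both inhibitor mice lay below both untreated mice for 3 of 4 members, beside 15.6% of all genes, and edgeR called 0.00997% of the 10029 genes tested there (1 gene, not a member).

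Few cells and counts stood behind the Ifitm1 values of CD8 T cells. A count was listed in 20 of 187, 6 of 103, 5 of 113 and 11 of 204 CD8 T cells (untreated 1 and 2, inhibitor 1 and 2). These are shares of 10.7% (95% Wilson interval 7.03% to 15.9%) and 5.83% (2.70% to 12.1%) in the untreated mice, and of 4.42% (1.90% to 9.94%) and 5.39% (3.04% to 9.40%) in the inhibitor mice, with intervals that cover counting error only. The intervals of all 4 mice overlapped. After thinning to 2000 counts the shares were 10.2%, 4.85%, 3.54% and 4.90%. Plasmacytoid dendritic cells, at a median depth of 11852 counts against 8489, had a count of Ifitm1 in 0.980%, 0.867%, 0% and 0% of cells, and 0 of 70 and 0 of 136 cells allow shares of up to 4.29% and 2.21%.

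The counts in those CD8 T cells were uneven. Untreated mouse 1 had 1253 counts, of which 502 lay in 1 cell and 795 in its top 3 cells, while the other mice had 166, 82 and 254 counts. That 1 cell was the deepest of the 607 CD8 T cells, with 73002 counts of 5494 genes. It had counts of 8 of 8 T cell markers, 52 of Cd8a and 99 of Cd8b1, beside counts of 4 of 12 neutrophil markers, with 0 of Csf3r. The same cell had counts of 4 of 11 monocyte and macrophage markers (50 of Ly6c2) and 4 of 10 microglia markers. Of the 11 markers of the other dendritic cells it had counts of 1. It held 40.1% of the Ifitm1 counts of its mouse, whose level without it was 363 CPM, and the fitted log2 fold without it was -1.63. None of the CD8 T cells with Ifitm1 had a listed count of the neutrophil genes S100a8 or S100a9, and 1, 0, 1 and 1 of the other CD8 T cells of the 4 mice did, but their smallest nonzero counts in the matrix were 110 and 112, so small amounts of them cannot be seen.

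**Figure D4:**
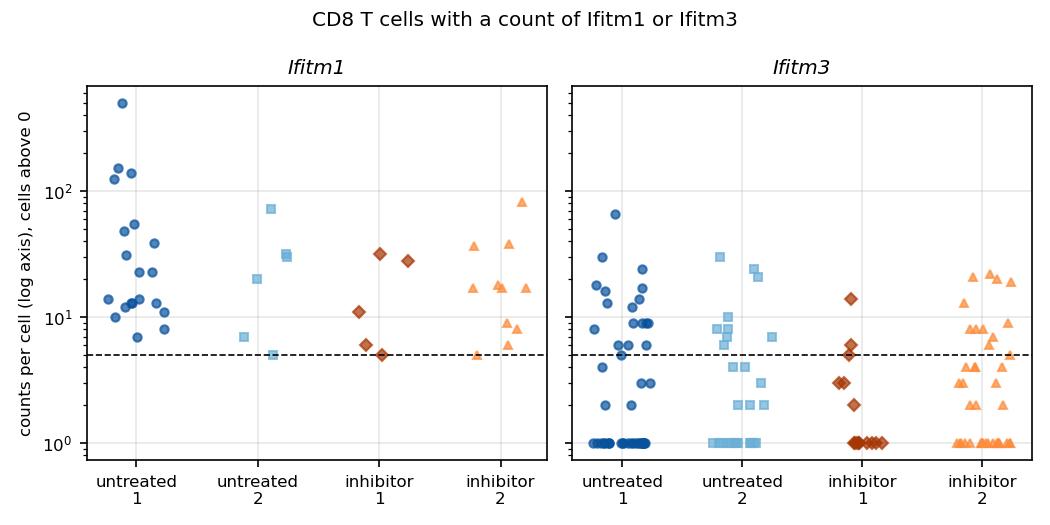
Counts of Ifitm1 (left) and Ifitm3 (right) in each CD8 T cell with a count (log axis), by mouse, with a dashed line at 5, the smallest nonzero count of Ifitm1. No Ifitm1 point lies below the line, many Ifitm3 points do, and 1 cell of untreated mouse 1 has 502 counts of Ifitm1.

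The limit on small counts left the Ifitm1 ratio of CD8 T cells wide. With groups pooled, the level was 445 CPM in the untreated and 92.3 CPM in the inhibitor mice as listed, a log2 ratio of -2.27. With each listed 0 at 4 counts those levels would be 777 and 423 CPM, a log2 ratio of -0.88. With zeros raised in 1 group only, it could run from -3.07 to -0.07. These bounds cover hidden counts only and not the spread between mice. They belong to the contrast that chose the family, so their direction supports nothing further.

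The fold also moved with how the CD8 T cells were chosen and with single mice. For Ifitm1 it was -1.57 when cells were gated on marker counts in place of clusters, -1.16 after thinning, -0.90 without untreated mouse 1 and -2.77 without untreated mouse 2. The gates turned Ifitm2 to 0.25 and Ifitm6 to -0.30 and left Ifitm3 at -0.60. Ifitm3 ran from -0.81 without inhibitor mouse 1 to -2.19 without inhibitor mouse 2, and Ifitm2 was -1.61 with the limit of Ifitm1 laid on it. Other markers in the same cells moved too: 9 of 11 markers of the other dendritic cells were lower in the inhibitor mice (232 and 122 against 86.4 and 75.1 CPM in sum), as were 7 of 11 monocyte and macrophage markers (3728 and 3528 against 2532 and 2320 CPM). The 12 neutrophil markers summed to 524 and 447 against 856 and 719 CPM, with 5 lower. Of the neutrophil, dendritic cell and monocyte lists, 5, 7 and 5 markers were listed at 0 in a mouse, and none in all mice. Neutrophil markers such as S100a8 (smallest nonzero count 110) and Camp (29) lack small counts, so 1 cell can weigh on their sum. The part of the 3 lists in the Ifitm values was not tested.

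In the 9 other classes that were fitted, 0 of 35 member folds passed, 9 had an unadjusted p below 0.05 and 17 were below 0. Over these classes edgeR called 0.0051% of the genes (5 of 98095 tests). Genes with such an unadjusted p ran from 304 of 8927 in T cells without a subtype to 1691 of 14296 in microglia. In the neutrophils, their stages and CD4 T cells all 24 folds were below 0 and 8 had an unadjusted p below 0.05, in sets that share mice and cells. There such genes ran from 321 of 7071 in mature neutrophils to 752 of 14865 in all neutrophils. Of all genes, 51.9% lay below 0 in neutrophils and 49.9% in CD4 T cells. Dendritic cells other than plasmacytoid ones had 2116 and 1409.8 against 1877 and 1804 CPM of Ifitm1, and their groups overlapped. Microglia had 80.2 and 125 against 50.5 and 61.1 CPM of Ifitm2, and plasmacytoid dendritic cells had 116 and 74.5 against 27.2 and 32.2 CPM of Ifitm3, at low levels. These are examples from the 35 member folds, so they are not read as results about the members. The share of all genes with both inhibitor mice below both untreated mice was not counted in these classes. In the sets above it was 13.7% to 16%. In the microglia class 8 of 8 T cell markers were also lower in the inhibitor mice, at 1122 and 2364 against 251.1 and 464 CPM in sum. In plasmacytoid dendritic cells the T cell markers summed to 528 and 515 against 391 and 583 CPM, with 5 of 8 lower. The 12 neutrophil markers summed there to 361 and 1037 against 671 and 385 CPM, with 8 lower and 5 listed at 0 in a mouse. The part of these markers in the Ifitm values was not tested. Regulatory T cells had 59.9 and 16.4 against 8.77 and 20.3 CPM of Ifitm1, which overlapped.

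The interferon pathway around the family was taken from lists. Of 19 genes of interferon receptors and their signalling, all tested, edgeR called 0 in neutrophils (11 below 0, median log2 fold -0.01) and 0 in CD4 T cells (12 below 0, median -0.06), beside medians over all genes of -0.01 and 0.00. Named by their smallest p, Irf8, a factor of myeloid development, was at 23.9 and 14.5 against 14.0 and 12.4 CPM in neutrophils (-0.55 ± 0.24, edgeR adjusted p = 0.965). Irf7, which drives type I interferon genes, was at 115 and 109.98 against 134 and 117 CPM in CD4 T cells (0.16 ± 0.13, edgeR adjusted p = 1). The other genes so named were Irf2 (0.14) and the interferon gamma receptor chain Ifngr2 (-0.14) in neutrophils, and Ifngr2 (-0.52) and Irf9 (0.20) in CD4 T cells.

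Of 33 other antiviral genes that interferons induce, edgeR also called 0 in both classes. In neutrophils 22 lay below 0 with a median of -0.11, beside 51.9% of all genes below 0, and in CD4 T cells 12 did with a median of 0.11, beside 49.9%. In CD4 T cells Ifih1, which encodes the RNA sensor MDA5, was at 41.7 and 29.6 against 66.5 and 46.5 CPM (0.66 ± 0.24, edgeR adjusted p = 1, unadjusted p = 0.0249), and Ddx58, which encodes RIG-I, was at 59.3 and 55.4 against 88.6 and 66.4 CPM (0.43 ± 0.18, edgeR adjusted p = 1). Both genes were higher in both inhibitor mice, and Mx1 followed at 0.43 ± 0.24. The 3 named in neutrophils were Parp14 (-0.33), Ifi208 (0.78) and the kinase gene Eif2ak2 (-0.30).

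Genes that handle IFITM proteins, such as palmitoyltransferases and binding partners, gave 0 calls of 17 tested in neutrophils (7 below 0, median 0.03) and 0 of 18 in CD4 T cells (7 below 0, median 0.02). Those with the smallest p were Vapa (0.17), Atp6v0b (0.10) and Zdhhc20 (0.11) in neutrophils and Zdhhc7 (0.45), Vapb (0.30) and Zdhhc3 (-0.21) in CD4 T cells. Other rows of the family were low. Ifitm5, a bone gene, was at 1.57 and 0.859 against 2.73 and 2.28 CPM in neutrophils (1.04 ± 0.41, edgeR adjusted p = 0.965), Ifitm7 was at 1.13 to 1.53 CPM and Ifitm10 at 14.1 to 16.7 CPM in neutrophils. In CD4 T cells Ifitm10 (0.28 ± 0.29) and Prrt2 (0.16 ± 0.80) were tested, with an edgeR adjusted p of 1.

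Among neutrophils and CD4 T cells, those that carried counts of both Ifit1 and Ifit3, interferon-induced genes outside the family, had more Ifitm3 in every mouse. In neutrophils 68 such cells had 3776 and 2721 CPM in the untreated and 3217 and 3199.7 CPM in the inhibitor mice, against 1636, 1492, 1553 and 1459 CPM in the 6732 cells with neither gene. Of the 68 cells 61 were inflammatory, and within that stage the ratio of the levels was 1.97, 1.61, 1.75 and 2.00. The CD4 T cell class holds a cluster of 305 cells led by Gzmk, Ifit3 and Ifit1, and no comparison was made within a CD4 cluster. In CD4 T cells 140 cells with both genes had 774, 460.2, 523 and 628 CPM against 325, 213, 172 and 226 CPM, ratios of 2.38, 2.16, 3.03 and 2.78. Ifitm3 was higher with Ifit1 and Ifit3 in 4 of 4 mice in each of these 3 sets. Other T cells, with few such cells, went both ways. In CD8 T cells 46 cells with both genes gave ratios of 1.59, 7.73, 0.186 and 3.13, lower in inhibitor mouse 1, and in regulatory T cells 19 cells gave 15.7, 0, 0.265 and 1.31, lower in untreated mouse 2 and inhibitor mouse 1. Microglia (58 cells) ran from 1.24 to 3.45 and the other dendritic cells (29 cells) from 1.01 to 3.004, while 7 monocytes and macrophages gave 0.412, 8.10, 0.176 and 4.19.

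For the other members the ratio depended on the set of cells. Over all neutrophils it was 1.13 to 1.32 for Ifitm2, 0.924 to 2.76 for Ifitm1 and 0.691 to 0.835 for Ifitm6. Within inflammatory neutrophils the ratio was 0.759 to 0.986 for Ifitm2, 0.453 to 1.32 for Ifitm1 and 0.870 to 1.05 for Ifitm6. In CD4 T cells it was 0.333 to 1.07 for Ifitm2, and for Ifitm1 it was 0.514, 0.230, 0.970 and 1.72, above 1 in 1 of 4 mice. Those Ifitm1 ratios rest on 80.2, 13.6, 65.3 and 69.3 CPM in 38, 33, 27 and 42 cells with both genes. A listed 0 of Ifitm1 can stand for up to 4 counts, so the ratios cannot show whether Ifitm1 follows the Ifit genes there. Depth differed too: CD4 T cells with both Ifit genes were deeper in 4 of 4 mice, with a median of 10155 against 7158 counts in untreated mouse 1. Neutrophils with both genes were shallower in 3 of 4 mice, with 8053 against 8504 counts in untreated mouse 1 and, as the exception, 11799 against 8692 counts in inhibitor mouse 1. Within inflammatory neutrophils, however, cells with both genes were deeper in 4 of 4 mice. Their medians were 8053 against 6782.5 and 7987 against 7801 counts in the untreated mice. In the inhibitor mice they were 11420.5 against 6775.5 and 7456 against 6970 counts. The part of depth in the ratios was not tested. These are differences between cells of the same mice, given without a test.

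**Figure D5:**
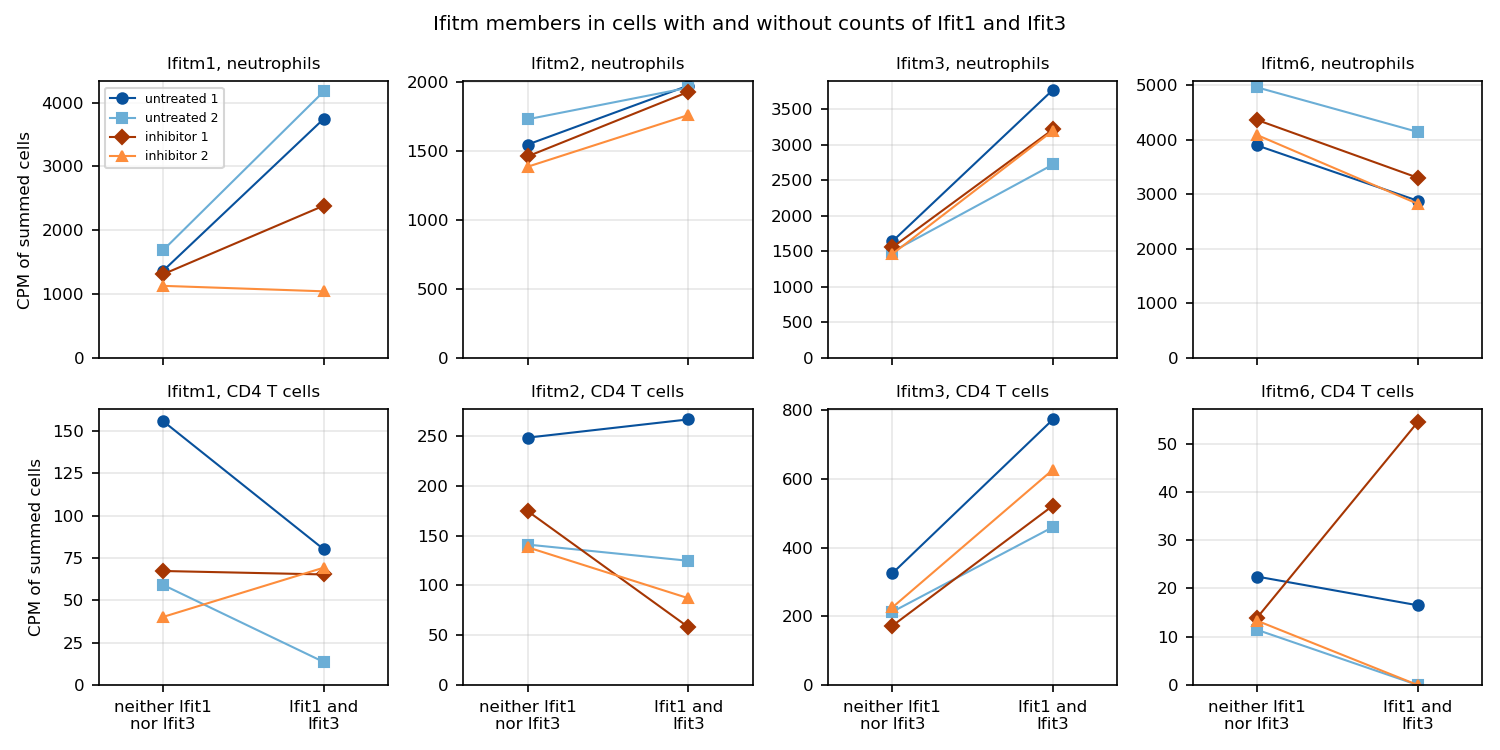
Level of each member (CPM of summed cells) in cells with neither Ifit1 nor Ifit3 and in cells with both, in neutrophils (top) and CD4 T cells (bottom), with 1 line a mouse. All 4 lines of Ifitm3 climb in both classes, whereas the lines of Ifitm1 go both ways.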

How the data were processed

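Single cells were captured on a BD Rhapsody system with the TAS-Seq protocol, per the labels' protocols. The deposited file is a matrix of raw counts, whole numbers for 28482 genes in 25461 columns, with no normalization by the authors. The submitters' processing notes name GRCm38, and the file name carries DBEC, a BD error correction whose settings are, like the aligner and counter, not given in the sources used here. The 44 first-listed genes hold no counts below 4. The members and gene lists were chosen with earlier results of these data known.

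Of the columns, 3943 with more than 1 hashtag were not used. Cells with under 200 genes (0 cells) or over 20% mitochondrial counts (1014) were left out, as were 1248 cells called as doublets from their likeness to those hashtag doublets (8.58% and 8.54% of the untreated mice's cells and 3.73% and 4.04% of the inhibitor mice's). Counts were scaled to 10000 a cell, and 2000 variable genes without the members gave 40 principal components, 20 neighbours and 25 Leiden clusters at resolution 1 (leidenalg 0.10.2). A cluster needed at least 3 markers of a type. The rule that separates NK cells from T cells was set after the clusters were seen, and 1 cluster of 603 cells led by Klra6 and Xcl1 stayed unnamed.

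Counts were summed per mouse for classes that hold 30 or more cells of every mouse, then tested with edgeR 4.0.16 (glmQLFit and glmQLFTest, filterByExpr, TMM) in R 4.3.3. The main threshold was an adjusted p of 0.05. DESeq2 1.42.0 was an alternative, as were scaling, filters, a replicate block, doublets, cell filters, clustering with the members, marker gates, the count limit, thinning to 2000 counts and leaving out each mouse. Named genes were the 4 members, other family rows, per list every called gene or else the 3 with the smallest p in each class, and the 5 most alike per member with at least 10 CPM.

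The edgeR step was tested on simulated data. In neutrophil counts with a dispersion of 0.01 (14536 genes) it recovered 100 of 100 genes changed 2-fold and 100 of 100 changed 4-fold, with 13 false calls, and with a dispersion of 0.05 (14489 genes) 17 and 100, with 2 false calls. In CD4 T cell counts it recovered 99 and 100 (14241 genes, 13 false calls) and 26 and 98 (14205 genes, 0 false calls). The p-values measure the spread between 2 mice a group.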

Additional observations from a re-analysis of the deposited data

How the results depend on the processing

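Of 28 tested member folds, 419 values under alternatives kept the direction in 402 and turned in 17. With a mouse left out, 1 group holds 1 mouse, so calls of those fits rest on the spread of the other group alone. An adjusted p below 0.05 was reached in 21 values, 16 of them with a mouse left out (14 without untreated replicate 1), 4 with no filter on low counts and 1 with DESeq2. Genes called were 12 with DESeq2 and 86 with no filter in neutrophils, and 0 to 446 with a mouse left out (446 without untreated replicate 1, 79 without untreated replicate 2). In CD4 T cells they were 1, 35 and, after thinning, 1, and 0 to 16 with a mouse left out (16 without inhibitor replicate 2, 1 without inhibitor replicate 1). In CD8 T cells, against 1, they were 5, 17 and 0 after thinning, with bias-adjusted deviances and with marker gates, and 3 to 19 with a mouse left out (19, 11, 3 and 15 without untreated 1, untreated 2, inhibitor 1 and inhibitor 2). Over other classes and stages, against 5, they were 318, 1083 and 106, with 12 under bias-adjusted deviances and 2 with the members among the clustering genes, and 1980, 290, 183 and 1092 without each mouse in that order. For the interaction they were 1, 6 and 2, and 5, 7, 1 and 13 without each mouse.

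The labels number the mice 1 and 2 in each group without saying that a number pairs them, and deviations of same-numbered mice correlated at -0.06 in neutrophils, -0.14 in CD4 T cells and 0.04 in CD8 T cells. A replicate block gave 5 calls in neutrophils, 2 in CD8 T cells and 187 over other classes and stages. The crossed replicate block, added after the data were seen, gave 0 calls in CD4 T cells.

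With doublet calls kept, Ifitm1 in CD4 T cells turned to 0.13 and the interaction to -0.66 for Ifitm1, -0.15 for Ifitm2 and -0.028 for Ifitm3. The Ifitm2 interaction was -0.015 with marker gates and -0.058 after thinning. With each mouse left out, folds ran from -0.16 to 0.0020 for Ifitm3 and -0.27 to 0.11 for Ifitm6 in neutrophils, -0.69 to 0.29 for Ifitm2 and -0.39 to 0.19 for Ifitm6 in cycling precursors, -0.38 to 0.12 for Ifitm6 in immature and -0.77 to 0.061 for Ifitm1 in inflammatory cells, -0.68 to 0.026 for Ifitm2 and -0.51 to 0.030 for Ifitm3 in CD4 T cells, and for the interaction from -0.35 to 1.17 (Ifitm1), -0.27 to 0.54 (Ifitm2) and -0.025 to 0.61 (Ifitm6). Ifitm1 in CD8 T cells was -1.57 with marker gates, -1.16 after thinning, -1.63 without its top cell (added after the data were seen), -2.77 to -0.90 with a mouse left out, and -3.07, -0.075 and -0.88 with listed zeros at their bound in the untreated, inhibitor or both groups. The mean log2 ratio of Ifitm1 in neutrophils over CD4 T cells went from 4.38 to 1.68 with zeros at their bound.

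With doublet calls kept, cycling precursors and monocytes could not be named, and the stricter cell filter left no monocyte class, so neither gives a sum over other classes. Marker gates were run for neutrophils, CD4 T cells, CD8 T cells and the interaction only.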
